A study of Sus scrofa and Bos taurus with 31 samples.

Results

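The interleukin and interleukin receptor genes of the pig were described by the open chromatin at their loci in 8 tissues. The members were the 72 protein-coding genes on chromosomes 1 to 18 of the RefSeq annotation of Sscrofa11.1 whose symbol begins with IL and a number, out of 18725 protein-coding genes there. A further 6 genes of the annotation with such a symbol lie outside these chromosomes and were not counted. By symbol, 34 genes with an R after the number were taken as receptors and the other 38 as ligands. The split by symbol puts IL6ST, which encodes the shared receptor subunit gp130, IL18BP, which encodes a binding protein that blocks IL-18, and IL4I1, which encodes an enzyme, on the ligand side. IL28B and IL29 encode interferons of the lambda type.

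ATAC-seq, which tags open DNA with a transposase, gave 16 pig libraries from spleen, lung, liver, skeletal muscle, adipose and 3 parts of the brain (cerebellum, cerebral cortex and hypothalamus), 1 from each of 2 animals, P348 and P350. The animals were castrated male Yorkshire littermates aged 6 months. Nuclei had been cryopreserved from fresh tissue. No treatment or genotype separated the groups, so every comparison is one of tissues within the same 2 littermates, and p-values measure the spread between these 2 pigs only.

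Interleukins are secreted proteins by which leukocytes and tissue cells signal to each other, and each acts through receptor subunits on the target cell. Receptors of the common gamma chain group (IL2RA, IL2RB, IL4R, IL7R, IL9R, IL15RA and IL21R) and of the IL-10 and IL-6/IL-12 groups signal through JAK kinases and STAT factors, whereas receptors of the IL-1 and IL-17 groups signal towards NF-kB. The spleen is a lymphoid organ that holds many B cells, T cells and macrophages, and the lung holds resident macrophages beside its epithelium.

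The sequences of 5 promoters are shown, each running from 250 bases before a transcription start site (TSS) to 50 bases from it. IL1A, IL27, IL7R and IL2RA were picked for a TSS peak more common in spleen than in the 12 libraries outside spleen and lung. IL10RA was picked for a TSS peak in every library and the lowest adjusted p in spleen among such genes. The spleen bias of these genes therefore comes from the choice. A peak overlapped the window in 4 of the 16 libraries for IL1A, in 7 for IL27, in 8 for IL7R, in 9 for IL2RA and in all 16 for IL10RA. For genes with several annotated TSS the window that most libraries had a peak in was taken. All 5 are on the plus strand of Sscrofa11.1, read from the genome at the RefSeq TSS, and capitals mark matches, on either strand, to 1 of the 5 motifs searched: TGTGGT (RUNX), GAGGAAG (ETS family, including PU.1), TGANTCA (AP-1), TTCNNNGAA (STAT) and GGANTTTCC (NF-kB).
IL1A promoter, chr3:43718070-43718369: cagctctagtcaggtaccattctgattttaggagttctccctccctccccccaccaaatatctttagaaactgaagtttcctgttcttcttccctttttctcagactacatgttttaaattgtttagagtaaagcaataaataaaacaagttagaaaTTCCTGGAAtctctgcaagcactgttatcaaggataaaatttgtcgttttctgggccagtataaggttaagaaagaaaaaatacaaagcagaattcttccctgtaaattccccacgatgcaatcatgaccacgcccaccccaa
IL27 promoter, chr3:18421712-18422011: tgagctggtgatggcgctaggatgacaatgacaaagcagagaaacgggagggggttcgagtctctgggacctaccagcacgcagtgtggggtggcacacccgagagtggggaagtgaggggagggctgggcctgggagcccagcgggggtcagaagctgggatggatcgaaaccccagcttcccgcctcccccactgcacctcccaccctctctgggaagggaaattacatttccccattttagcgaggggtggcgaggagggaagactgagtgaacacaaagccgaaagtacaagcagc
IL7R promoter, chr16:21299891-21300190: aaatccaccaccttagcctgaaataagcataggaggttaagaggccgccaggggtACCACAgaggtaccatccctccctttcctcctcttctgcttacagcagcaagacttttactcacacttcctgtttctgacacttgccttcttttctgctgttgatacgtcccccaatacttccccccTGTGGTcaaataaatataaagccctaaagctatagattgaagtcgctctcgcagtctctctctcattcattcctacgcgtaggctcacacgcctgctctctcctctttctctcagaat
IL2RA promoter, chr10:64948656-64948955: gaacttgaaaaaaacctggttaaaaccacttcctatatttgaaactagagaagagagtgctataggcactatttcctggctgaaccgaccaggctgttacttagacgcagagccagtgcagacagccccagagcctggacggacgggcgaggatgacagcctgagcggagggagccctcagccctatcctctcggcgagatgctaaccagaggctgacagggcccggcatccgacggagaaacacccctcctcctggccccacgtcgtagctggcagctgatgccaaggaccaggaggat
IL10RA promoter, chr9:45310277-45310576: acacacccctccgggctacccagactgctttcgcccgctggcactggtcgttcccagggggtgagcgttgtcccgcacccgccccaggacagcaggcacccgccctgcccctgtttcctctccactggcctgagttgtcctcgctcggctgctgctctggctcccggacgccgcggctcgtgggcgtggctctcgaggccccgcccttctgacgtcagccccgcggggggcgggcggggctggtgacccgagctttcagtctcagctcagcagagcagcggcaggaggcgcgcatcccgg
The IL10RA window had 72.0% GC and the IL1A window 38.7%. IL7R held 2 RUNX matches and IL1A 1 STAT match, and the other 3 windows held none of the 5 motifs. A match is a stretch of letters and not a shown binding site.

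Away from the promoters, 5 introns are shown by 200 bases at the centre of a region that had a peak in both libraries of 1 tissue and in no library of the 7 other tissues. They are among the strongest such regions by the fold enrichment of the authors' caller. The letters are those of the plus strand of Sscrofa11.1, with capitals as above.
IL23R intron, spleen, chr6:145357866-145358065: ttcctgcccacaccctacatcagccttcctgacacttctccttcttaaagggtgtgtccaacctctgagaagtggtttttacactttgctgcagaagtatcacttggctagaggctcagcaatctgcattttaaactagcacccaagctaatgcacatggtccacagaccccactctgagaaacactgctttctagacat
IL23R intron, second spleen region, chr6:145345914-145346113: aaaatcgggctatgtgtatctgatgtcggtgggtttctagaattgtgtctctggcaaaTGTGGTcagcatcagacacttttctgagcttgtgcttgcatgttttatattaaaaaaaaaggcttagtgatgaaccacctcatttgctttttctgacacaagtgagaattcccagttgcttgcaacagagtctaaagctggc
IL10RB intron, spleen, chr13:196867435-196867634: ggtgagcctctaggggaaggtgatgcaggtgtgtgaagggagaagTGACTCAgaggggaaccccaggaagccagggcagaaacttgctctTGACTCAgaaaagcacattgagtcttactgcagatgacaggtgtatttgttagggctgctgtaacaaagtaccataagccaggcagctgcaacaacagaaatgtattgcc
IL20RB intron, spleen, chr13:77954659-77954858: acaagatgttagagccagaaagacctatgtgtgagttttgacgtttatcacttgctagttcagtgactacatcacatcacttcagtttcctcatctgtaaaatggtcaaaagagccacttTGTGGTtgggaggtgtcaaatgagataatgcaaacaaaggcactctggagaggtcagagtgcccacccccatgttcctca
IL7 intron, lung, chr4:57725721-57725920: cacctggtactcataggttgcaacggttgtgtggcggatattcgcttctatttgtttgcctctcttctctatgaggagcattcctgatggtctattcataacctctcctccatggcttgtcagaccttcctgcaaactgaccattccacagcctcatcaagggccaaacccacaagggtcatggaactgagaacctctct
The IL10RB stretch held 2 AP-1 matches, and the IL20RB stretch and the second IL23R stretch held 1 RUNX match each. IL23R encodes the receptor subunit specific to IL-23, IL10RB a subunit shared by receptors of IL-10, IL-22 and interferon lambda, and IL20RB a subunit of receptors for IL-19, IL-20 and IL-24. IL7 encodes the ligand of IL7R.

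Over all genes, 15.9% of 18724 promoter windows of this length, taken at the most 5′ TSS, held the RUNX letters TGTGGT, against 23 of the 72 members (31.9%), 10 of 38 ligands and 13 of 34 receptors. The NF-kB letters GGANTTTCC were in 1.61% of all promoters and in those of 6 members (8.33%), which were IL17C, IL18RAP, IL27RA, IL4R, IL6 and IL7. AP-1 letters were in 8 of the 72 member promoters against 6.05% of all. For the STAT letters the shares were 8.33% of members and 7.19% of all promoters, and for the ETS letters 9.72% and 12.2%. These shares are descriptions without a test.

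The libraries held 99960 to 217308 peaks covering 64.14 to 155.65 Mb, and the 2 spleen lists were among the shortest, with 66.28 and 67.77 Mb. Read depth was not used here, so a deeper library may list more and weaker peaks. The labelled tissues were checked against marker genes by a score, defined here as the peak bases in a gene and 10 kb on either side per Mb of all peak bases of the library. Mean summed scores were highest in the labelled tissue for the liver, skeletal muscle and neuron lists, the last in cerebral cortex. The neuron sums of 177 and 287 in cerebellum lay below the 297 and 368 of adipose. Those of hypothalamus, 381 and 420, spanned the 385 and 398 of lung, so neither of these brain tissues was set apart. The lung epithelium sums of 315 and 304 in lung overlapped the 326 and 291 of liver and the 338 and 224 of spleen, so this list did not set lung apart. The summed adipose score was 177 and 158 in the adipose libraries but 192 and 189 in spleen, and the adipose markers did not set adipose apart either. No defining list was at 0 in its own tissue.

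A peak within 2 kb of a TSS was less common for interleukin genes than for genes at large. By the median over libraries, the gap lay on the ligand side. The share of members with such a peak ran from 56.9% in hypothalamus P348 to 77.8% in lung P350, with a median of 67.4%, against 73.5% to 85.0% and a median of 79.0% over all genes. The members' share was below that of all genes in 16 of 16 libraries. The receptor genes had shares of 67.6% to 88.2% with a median of 79.4%, and the ligand genes 42.1% to 68.4% with a median of 55.3%. Receptors were above ligands in 16 of 16 libraries. The mean difference was 22.3 percentage points (SD 3.32 over the 2 animals), and it was 10.1 points with a distance of 5 kb and 12.7 points over peaks with q-values under 0.0001. The libraries share the same genes, so they do not count as independent tests of this difference.

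**Figure D1:**
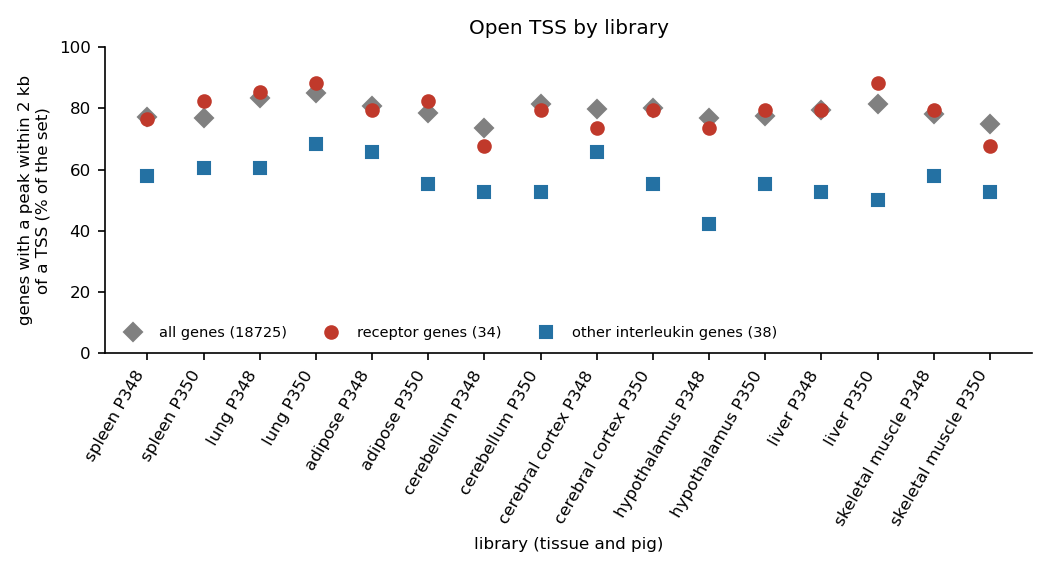
Share of genes with a peak within 2 kb of a TSS (%, y axis) in each of the 16 libraries (x axis), for all 18725 genes (diamonds), the 34 receptors (circles) and the 38 other interleukin genes (squares). The squares lie below the circles in every library, and the circles overlap the diamonds.

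By tissue, lung had the largest share of open members, 75.0% ± 3.96 (SD, n = 2), and hypothalamus the smallest, 61.8% ± 6.93 (SD, n = 2). Spleen had 68.8% ± 2.90 (SD, n = 2), within the range of the other tissues. The mean of spleen and lung was 6.37 points above that of the 6 other tissues for members (SD 3.11 over the 2 animals) and 2.11 points above it for all genes. The share over all genes was also highest in lung, 84.2% ± 1.13 (SD, n = 2). A TSS peak in every library was found for 27 of the 72 members (37.5%), against 58.0% of all genes. These were 11 of 38 ligands (28.9%) and 16 of 34 receptors (47.1%), both below the share of all genes. IL28B alone had no TSS peak in any library (1.39% of members), against 5.7% of all genes, and 44 members were open in some libraries and not in others. No member had a TSS peak in both spleen libraries and in none of the 12 libraries of the 6 tissues other than spleen and lung, against 0.139% of all genes. None had it for lung, against 0.144% of all genes.

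Promoters open in every library were richer in GC, among members and among all genes. The median GC content of the promoter window was 63.7% for the 27 members open in every library and 47.0% for the other 45. The same medians over all genes were 62.7% and 52.3%. Ligand promoters had a median of 47.5% GC and receptor promoters 56.7%, against 58.8% for all genes.

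Among ligands, the peaks at IL6, which encodes a main inducer of the acute phase response, and at IL6ST were present in every library. The strongest TSS peak of IL6 had a fold enrichment of 3.70 in cerebellum P348 to 12.3 in liver P348, and that of IL6ST 5.06 in adipose P348 to 11.7 in liver P348. IL12A and IL12B, which encode the subunits of IL-12, and IL15, IL16, IL34 and IL7 also had a TSS peak in all 16 libraries. IL5 and IL4I1 did as well, but a TSS of another gene (RAD50, or ATF5 and NUP62) lies within 2 kb of theirs. IL16, a chemoattractant for CD4+ T cells, reached folds of 11.3 and 13.3 in skeletal muscle against 2.75 to 6.24 in the other 14 libraries. IL20, a cytokine of the IL-10 group, had a TSS peak in the 14 libraries other than skeletal muscle and in neither muscle library.

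Several ligand genes known from activated T cells had a TSS peak in few libraries. IL2, the T cell growth factor, had one in 2 of 16 libraries, IL17A, IL17F and IL21 in 1 each, IL26 and IL31 in 2 each, and IL22 in 4. IL1B, an inflammatory cytokine of activated macrophages, had one in cerebellum P348 and in none of the other 15 libraries. IL13, a cytokine of T helper cells, had a TSS peak in all 16. IL1A was open at the TSS in both spleen libraries, with folds of 4.27 and 3.27, in 1 of 2 lung libraries and in 2 of the 12 others.

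Among receptors, IL7R and IL2RA had their strongest TSS peaks in spleen. IL7R, the receptor for the lymphocyte survival factor IL-7, had folds of 7.17 and 4.59 in spleen, 2.95 in 1 lung library and at most 3.78 in the 5 of 12 other libraries with a peak. IL2RA, the high-affinity subunit of the IL-2 receptor, had 4.87 and 4.63 in spleen, 3.08 in 1 lung library and at most 3.24 in the 6 of 12 others. In both genes the spleen folds lay above those of every other library. IL12RB1, a subunit of the IL-12 and IL-23 receptors, had its strongest TSS peaks in cerebral cortex and hypothalamus, with folds of 7.28 to 8.82 in these 4 libraries and at most 4.60 elsewhere. IL23R was open at the TSS in 1 lung and 1 adipose library and in neither spleen library.

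**Figure D2:**
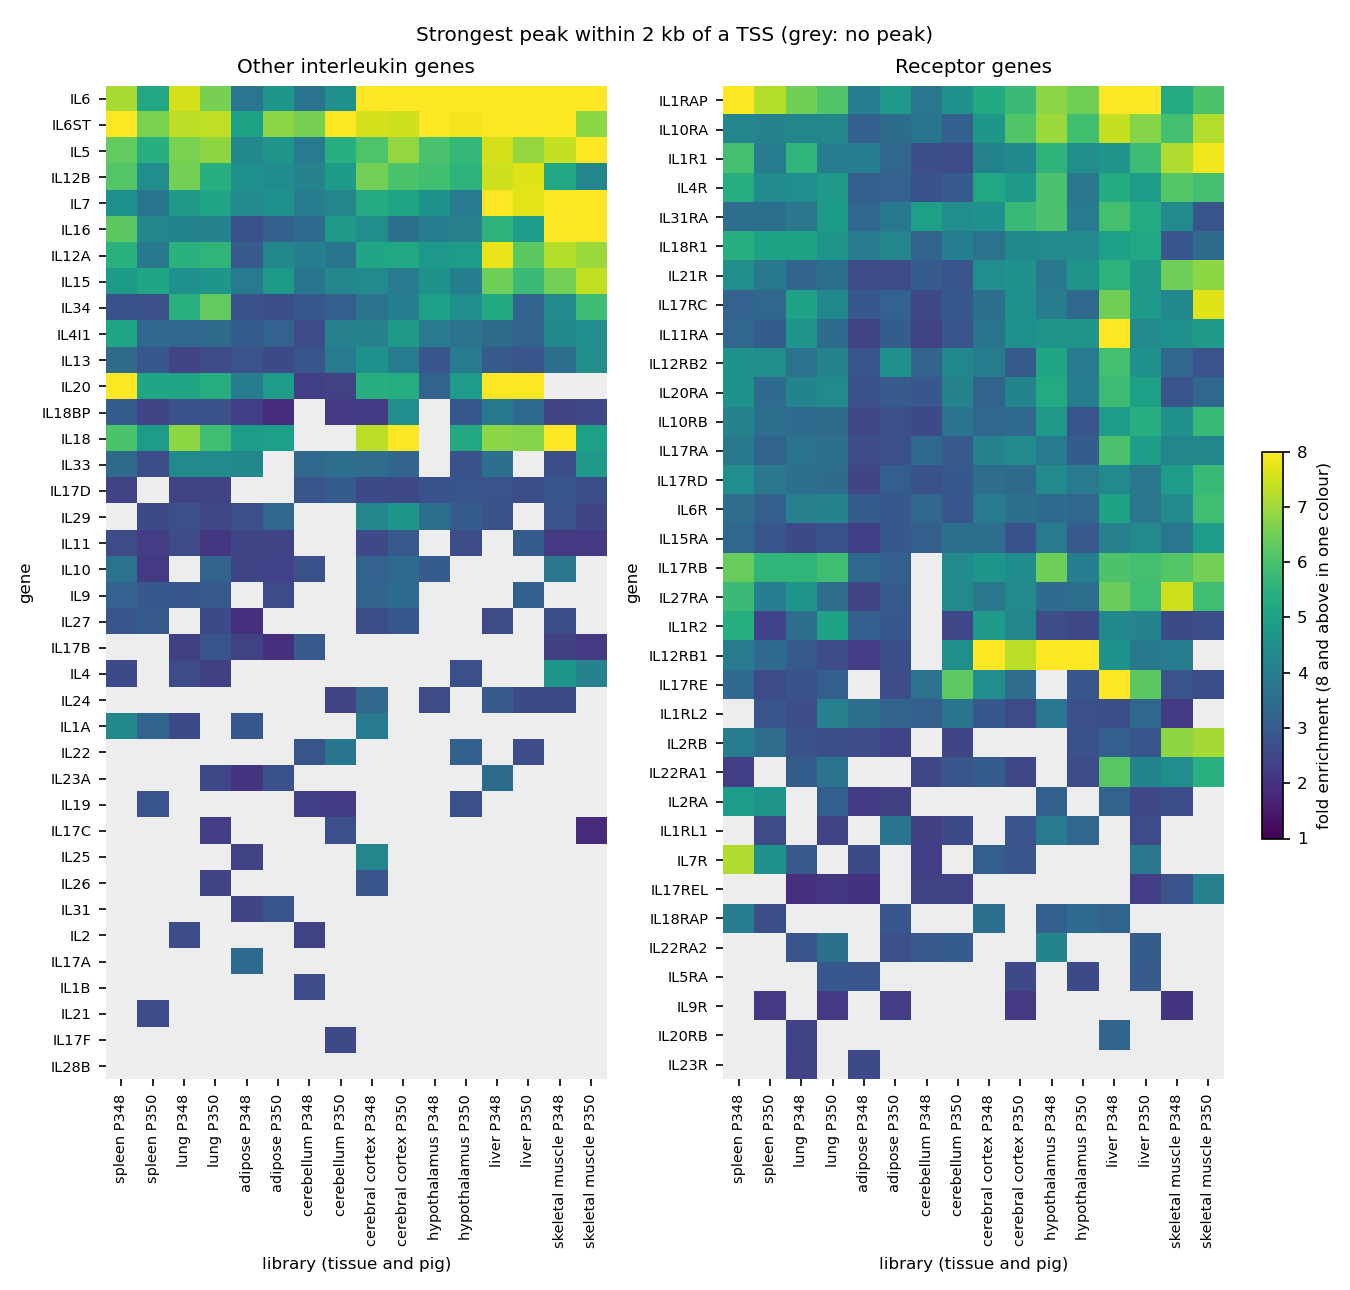
Fold enrichment of the strongest peak within 2 kb of a TSS (colour, values of 8 and above in one colour, grey for no peak) for each gene (rows) and library (columns), ligands and others on the left and receptors on the right. Rows are ordered by the number of libraries with a peak, from genes open in all 16 at the top to IL28B, open in none, at the bottom left.

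The score over the whole gene window was then compared between spleen and the 6 tissues other than spleen and lung, with limma on log2(score + 5) over 18340 genes. All 72 members had a peak in at least 2 libraries and were tested. In spleen 13 members were higher (18.1%) and 1 lower, against 13.6% of all genes higher and 16.8% called in either direction, so the share over all members was near that of all genes. The members were split unevenly, with 9 of 34 receptors (26.5%) and 4 of 38 ligands (10.5%) higher. The median log2 difference was 0.57 for receptors, 0.37 for ligands and 0.29 for all genes. Counted over peak bases not divided by the total, the all-gene median moved from 0.29 to -0.11, the part of all called genes that were higher fell from 80.7% to 30.3%, and 4 members were higher (IL1A, IL10RA, IL18 and IL27) and 3 lower (IL17A, IL17RD and IL1R1). Fewer cells of a type and less open chromatin per cell cannot be told apart in tissue samples.

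The common gamma chain receptors gave the most calls, with 5 of 7 higher in spleen, beside 13.6% of all genes. Their median log2 difference was 1.08, while none of their 6 ligands passed (median 0.34). With peak bases not divided by the total, none of the 5 receptors stayed called. IL21R, the receptor for a B and T helper cell cytokine, had scores of 145 and 96.7 in spleen, 39.2 and 35.3 in lung, and 15.2 to 59.4 with a median of 41.8 in the 12 other libraries. Both spleen values lay above all 14 others, with a log2 difference of 1.53 ± 0.24 (SE) and an adjusted p of 0.00215 by limma. IL2RB, the signalling subunit shared by the IL-2 and IL-15 receptors, had 96.9 and 104 in spleen, 46.7 and 56.6 in lung, and 2.86 to 81.9 (median 37.3) elsewhere. Its spleen values were again the highest, and the difference was 1.43 ± 0.41 (SE, adjusted p = 0.0311, limma).

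IL7R had scores of 48.7 and 67.3 in spleen, 29.7 and 29.4 in lung, and 3.23 to 48.5 (median 22.6) in the 12 other libraries, the lowest in skeletal muscle. Spleen P348 was just above cerebellum P350, and the difference was 1.15 ± 0.23 (SE, adjusted p = 0.00655, limma). IL4R, which takes part in the receptors of IL-4 and IL-13, had 138 and 119 in spleen, 60.1 and 47.3 in lung, and 21.3 to 113 (median 63.3) elsewhere. The highest of the others was muscle P350, still below both spleen values, and the difference was 1.05 ± 0.26 (SE, adjusted p = 0.0178, limma). IL15RA, the subunit that presents IL-15, had 105 and 73.9 in spleen, 63.9 and 78.6 in lung, and 15.5 to 80.8 (median 52.9) elsewhere. Here the groups overlapped, and the call (0.79 ± 0.24 SE, adjusted p = 0.0402, limma) was lost with the animals as blocks (adjusted p = 0.0519). IL2RA had 69.7 and 77.8 in spleen and 2.80 to 80.0 (median 48.5) in the 12 others, where muscle (80.0 and 52.1) and adipose (51.2 and 74.1) came close to spleen, and it was not called (1.08 ± 0.55 SE, adjusted p = 0.182, limma).

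**Figure D3:**
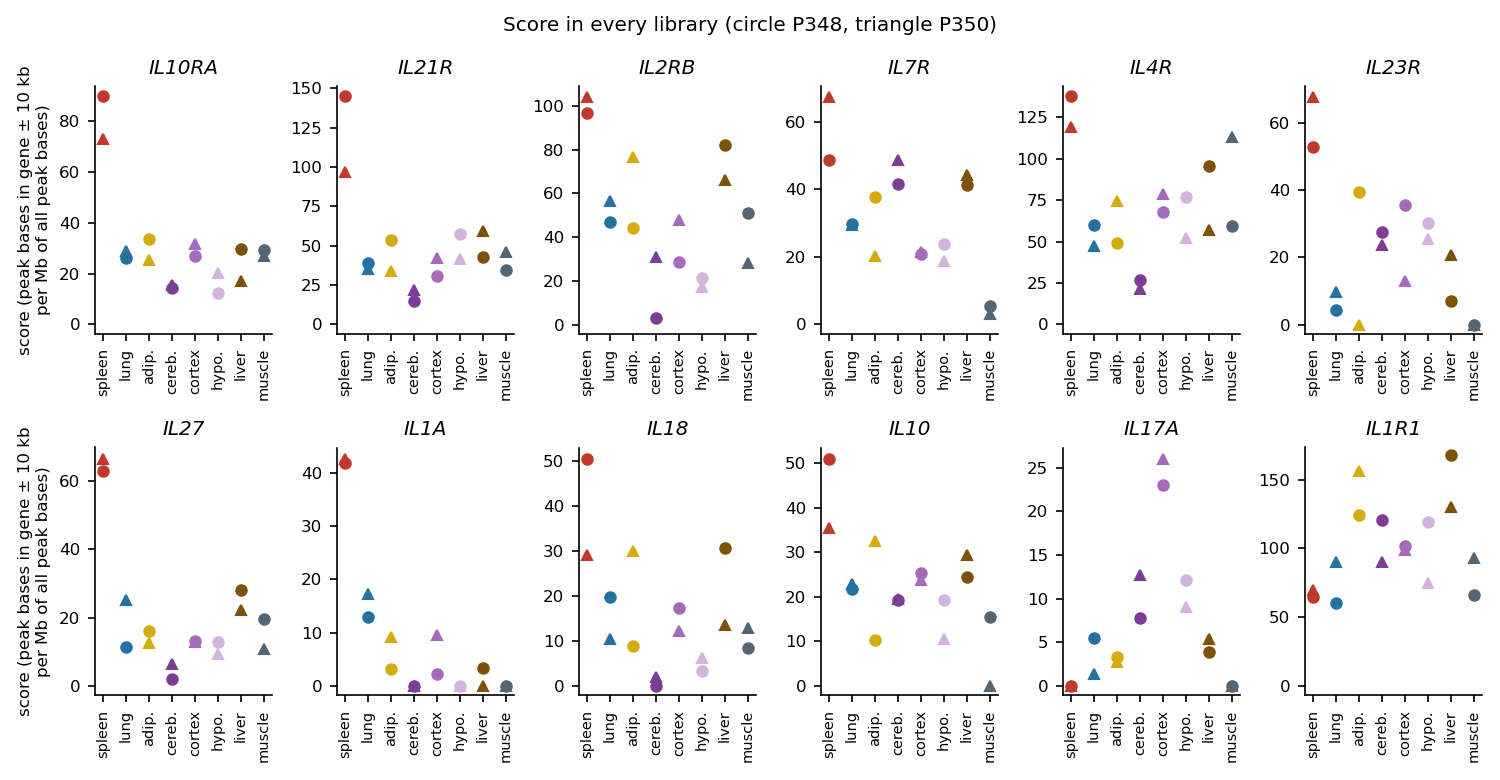
Score of 12 interleukin and receptor genes (y axis, peak bases in the gene and 10 kb on either side per Mb of all peak bases, each panel with its own scale) by tissue (x axis), with a circle for P348 and a triangle for P350. Both spleen points lie above all others for IL10RA, IL21R, IL2RB, IL7R, IL4R, IL23R, IL27, IL1A and IL10, and IL17A is at 0 in both spleen and both muscle libraries.

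Receptors of the IL-10 group followed, with 2 of 6 higher and none of the 8 ligands, beside 13.6% of all genes. IL10RA, the ligand-binding subunit of the IL-10 receptor, had scores of 89.8 and 72.7 in spleen, 26.3 and 28.9 in lung, and 12.3 to 33.6 (median 26.1) in the 12 others. The groups did not overlap, with a log2 difference of 1.64 ± 0.23 (SE, adjusted p = 0.00118, limma). IL10RB had 88.1 and 68.9 in spleen, 39.0 and 37.4 in lung, and 12.5 to 65.3 (median 41.7) elsewhere, which is a difference of 0.94 ± 0.30 (SE, adjusted p = 0.045, limma). This call did not hold with the animals as blocks (adjusted p = 0.0501). IL10, the anti-inflammatory ligand, had 51.0 and 35.5 in spleen, above the 0 to 32.6 (median 19.4) of the 12 others, but did not pass (1.13 ± 0.41 SE, adjusted p = 0.0751, limma).

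In the IL-6 and IL-12 group 1 of 8 ligands and 1 of 7 receptors were higher. These 2 of 15 genes were near the 13.6% of all genes. IL27, which encodes a subunit of IL-27, had scores of 62.8 and 66.5 in spleen, 11.5 and 25.2 in lung, and 1.96 to 28.2 (median 12.9) elsewhere. Spleen stood clear of the rest, with a difference of 1.99 ± 0.28 (SE, adjusted p = 0.00115, limma). IL23R had 53.0 and 67.7 in spleen, 4.31 and 9.74 in lung, and 0 to 39.6 (median 22.1) elsewhere. The lung values were below the median of the other tissues and those of spleen above all, with a spleen difference of 1.84 ± 0.56 (SE, adjusted p = 0.0395, limma). IL23A, the subunit specific to IL-23, had 39.9 and 38.2 in spleen and 1.45 to 28.4 (median 17.8) in the 12 others and missed the threshold (1.18 ± 0.39 SE, adjusted p = 0.053, limma). Its window overlaps that of STAT2. IL6R had 131 and 82.3 in spleen and 18 to 168 (median 69.2) elsewhere, so its groups overlapped (0.62 ± 0.22 SE, adjusted p = 0.0721, limma). IL6ST gave 19.4 and 38.8 in spleen, within the 12.7 to 62.4 of the other 12 libraries.

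In the IL-1 group 2 of 5 ligands and 1 of 7 receptors were higher, beside 13.6% of all genes. IL1A, a ligand of the IL-1 receptor, had scores of 41.9 and 42.6 in spleen, 12.9 and 17.2 in lung, and 0 to 9.64 (median 0) in the 12 others. It was the only member whose lung libraries also both lay above all 12 (1.39% of members against 0.668% of all genes). The places differed in part. Lung P348 had peaks that overlapped those of spleen, and the peaks of lung P350 overlapped none of them. A region past the end of the gene, nearest the TSS of CKAP2L, was open in both lung libraries and in no spleen library. The spleen difference of IL1A was the largest of all members, 2.82 ± 0.29 (SE, adjusted p = 0.000234, limma). IL18, which induces interferon gamma, had 50.4 and 29.1 in spleen and 0 to 30.7 (median 10.5) elsewhere, with an overlap at liver P348 and adipose P350 (1.57 ± 0.36 SE, adjusted p = 0.0121, limma). IL18R1, its receptor, had 44.1 and 44.2 in spleen, 39.3 and 30.7 in lung, and 9.51 to 61.2 (median 25.0) elsewhere, with liver P348 the highest. The difference was 0.80 ± 0.22 (SE, adjusted p = 0.0283, limma). IL1R1, the signalling receptor for IL-1, had 64.8 and 69.4 in spleen against 65.8 to 168 (median 111) in the 12 others, a value that did not pass (-0.65 ± 0.23 SE, adjusted p = 0.0623, limma). IL1B had 5.30 and 8.28 in spleen, within the 0 to 17.6 of the others (0.23 ± 0.42 SE).

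The IL-17 group had no higher member, beside 13.6% of all genes, with medians of -0.10 for the 6 ligands and -0.02 for the 6 receptors. IL17A, a cytokine of T helper cells, was listed at 0 in both spleen libraries and both muscle libraries, at 5.55 and 1.38 in lung, and at 23.0 and 26.0 in cerebral cortex, the highest of all. It was the only member lower in spleen (adjusted p = 0.00483, limma), and no fold is given against a group at 0. Among the remaining members, IL13 was higher in spleen (24.5 and 47.5 against 9.98 to 40.6 with a median of 14.9 in the 12 others, adjusted p = 0.0329, limma), with muscle values of 31.5 and 40.6 inside the spleen range. IL34, a ligand of the CSF1 receptor, was highest in muscle, at 206 and 229, with 80.0 and 71.7 in spleen and 77.2 and 77.7 in lung. IL16 had 98.7 and 125 in spleen and 24.6 to 128 (median 74.1) in the 12 others, and IL15, a growth factor of natural killer cells, had 55.5 and 36.2 against 17.4 to 78.7 (median 36.4). IL22, which acts on epithelia, had 4.03 and 0 in spleen, 0 and 1.88 in lung and 0 to 18.7 (median 9.69) in the others. In these 4 genes spleen overlapped the other tissues and no difference passed.

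**Figure D4:**
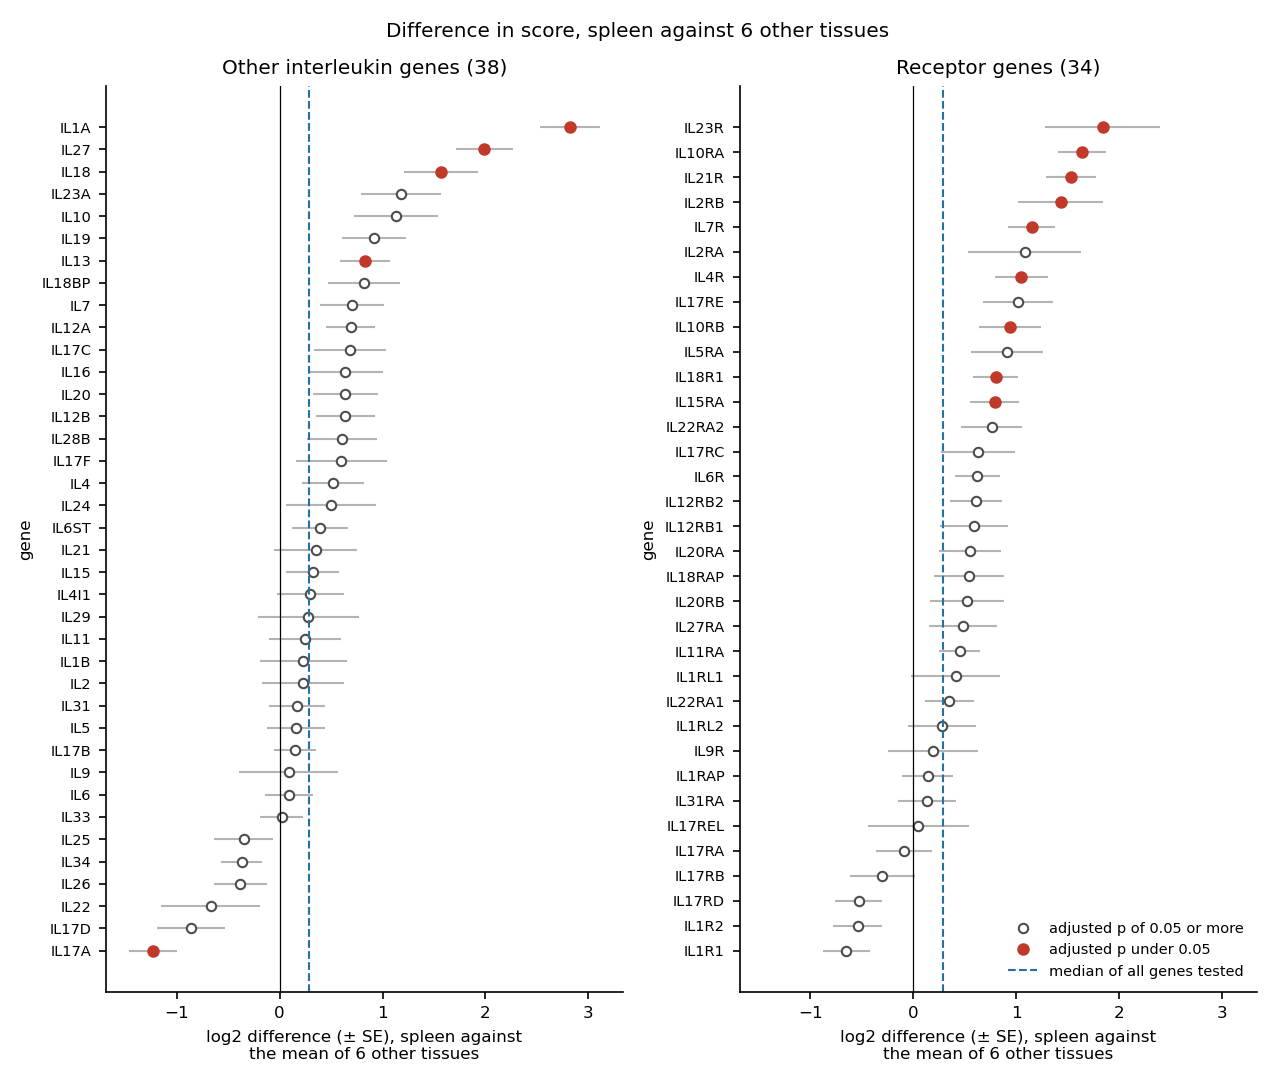
Log2 difference in score between spleen and the mean of 6 other tissues (x axis, points with SE bars, 2 libraries per tissue) for each of the 38 other interleukin genes (left) and the 34 receptor genes (right), filled where the adjusted p is under 0.05, with the median of all genes, 0.29, as a dashed line. The filled points are 13 to the right of 0 and IL17A to the left.

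Without any test, both spleen libraries lay above all 12 libraries of the 6 other tissues for 13 members (18.1%), against 8.66% of all genes. The 13 were IL10, IL10RA, IL10RB, IL12A, IL17RE, IL1A, IL21R, IL23A, IL23R, IL27, IL2RB, IL4R and IL7R, and spleen was also above both lung libraries in all of them. No member had both spleen libraries below all 12. Spleen was the tissue with the highest mean score for 23 members, 16 of 34 receptors and 7 of 38 ligands, against 22.5% of all genes. For 16 members it was skeletal muscle, against 33.9% of all genes.

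Markers of leukocytes moved with the spleen scores. All 11 T cell markers tested, 7 of 9 B cell markers and 6 of 10 macrophage markers were higher in spleen than in the 6 other tissues by limma. The summed T cell score was 830 to 943 in spleen, 375 to 403 in lung and 185 to 488 in the 12 others, and the summed B cell score 845 to 931, 485 to 562 and 210 to 615. The macrophage sums were 504 to 617, 357 to 400 and 224 to 460. Adipose markers were also higher in spleen (4 of 6, ADIPOQ, CIDEC, FABP4 and PLIN1). The part of these cell types in the interleukin results was not tested. In 18 members the window overlapped that of no other coding gene, with 10 kb added on either side of both genes. Of these, IL10RA and IL4R were higher in spleen and IL17A lower, beside 13.6% of all genes higher. In the other members, peaks in the overlap count towards both genes.

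The calls in spleen rested on few libraries, among all genes as well as among members. Without spleen P348, 3 members remained called (IL1A, IL10RA and IL27), and without spleen P350 these 3 and IL21R. The fit measures the spread between the 2 animals within a tissue and not the spread between tissues.

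The summed leukocyte marker scores of lung lay within the range of the 6 other tissues. Spleen and lung were still compared with these tissues as one group. Here 7 members were higher and 1 lower of 72, against 4.68% of all genes higher and 5.66% called in either direction. The 3 ligands were IL1A, with a log2 difference of 2.20 ± 0.22 (SE, adjusted p = 0.00036, limma), IL27 with 1.17 ± 0.21 (adjusted p = 0.0082) and IL18 with 0.99 ± 0.27 (adjusted p = 0.049). The 4 receptors were IL10RA with 0.94 ± 0.17 (adjusted p = 0.00945), IL21R with 0.75 ± 0.18 (adjusted p = 0.0318), IL7R with 0.72 ± 0.17 (adjusted p = 0.0309) and IL18R1 with 0.65 ± 0.17 (adjusted p = 0.0417), all by limma. IL17A was the lower member (adjusted p = 0.0135, limma). Against the same 6 tissues lung alone gave log2 differences of 1.57 for IL1A, 0.50 for IL18R1, 0.42 for IL18, 0.35 for IL27, 0.30 for IL7R, 0.24 for IL10RA and -0.02 for IL21R, none of which passed, and the lung mean of IL21R, 37.2, was below the 39.9 of the other tissues. The median difference was 0.36 for members and 0.13 for all genes. With the animals as blocks IL18 (adjusted p = 0.0635) and IL18R1 (adjusted p = 0.0564) were no longer called. Counts were 1 to 5 without any 1 library of spleen, lung, cerebral cortex or skeletal muscle and up to 12 without 1 of the rest, and no member was called when the means of tissues served as the replicates.

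Lung on its own differed little. The comparison uses the same 6 other tissues as that of spleen. No member passed by limma. Over all genes 6 passed, or 0.0327%. The nearest was IL1A, with a log2 difference of 1.57 ± 0.29 (SE, adjusted p = 0.0838, limma). IL33, an alarmin of barrier tissues, had scores of 43.2 and 30.6 in lung, 23.2 and 19.4 in spleen, and 2.03 to 52.7 (median 28.9) in the 12 others, the highest in hypothalamus, which is a lung difference of 0.68 ± 0.21 (SE, adjusted p = 0.261, limma). IL5RA, the IL-5 receptor subunit of eosinophils, had 38.1 and 47.5 in lung against 9.09 to 44.7 (median 21.8) in the others and was not called (0.86 ± 0.35 SE, adjusted p = 0.372, limma). The median was 0.15 for members and 0.01 for all genes.

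Compared directly with lung, spleen was higher at 3 members and lower at none (4.17% called), against 4.49% of all genes higher and 6.07% called, so the members' share was no larger than that of all genes. The 3 were IL27 (1.64 ± 0.36 SE, adjusted p = 0.0251, limma), IL21R (1.55 ± 0.32 SE, adjusted p = 0.0215, limma) and IL10RA (1.40 ± 0.30 SE, adjusted p = 0.0239, limma). The largest difference, that of IL23R (2.47 ± 0.74 SE), missed the threshold (adjusted p = 0.0579, limma). These calls depended on the scaling. With peak bases not divided by the total no member was higher and 5 were lower in spleen (IL17D, IL17RD, IL1R2, IL26 and IL33), and the part of all called genes that were higher went from 73.9% to 1.99%. Lung lists covered 116.21 and 145.04 Mb, against the 66.28 and 67.77 Mb of spleen. Leaving out any 1 of the 2 spleen or 2 lung libraries left no member called.

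Peaks of all libraries that shared at least 1 bp were merged, which gave 967 regions in the windows of the members, with a median of 15 per receptor and 8 per ligand. Of these, 19 regions were open in both spleen libraries and in no library of another tissue (1.96%, against 0.9% of all 296864 regions in windows of coding genes). Receptor windows held 15 of them in 9 genes, out of 581 regions, and ligand windows 4 out of 400. Within introns of any coding gene, not only of the member, lay 11, within exons 4 and between genes 4. None was within 2 kb of a TSS. Lung had 12 such regions (1.24%, against 0.807%), and 1 region was open in spleen and lung alone (0.103%, against 0.0893%). When a peak in either animal was enough, the counts were 42 for spleen (4.34%, against 3.12% of all regions), 47 for lung (4.86%, against 5.03%) and 6 for both (0.62%, against 0.637%), so for lung and for both the members' share no longer lay above that of all regions.

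IL23R had 3 spleen regions, all in its introns, with folds of 4.80 and 4.40, 4.58 and 4.18, and 4.92 and 3.91 in P348 and P350. These introns are also annotated to C6H1orf141, which overlaps the gene. The sequences printed for IL23R are the centres of the first 2 of these regions. IL10RB had 2 spleen regions, the one shown with folds of 5.44 and 4.47, and another region between them, at chr13:196863294-196863779, was open in both spleen and both lung libraries with folds of 2.93 to 3.83 and in no other library. IL2RA had 2 spleen regions, one 7646 bases upstream of its TSS with folds of 3.83 and 3.89 and one in an intron with 5.07 and 3.74. The windows of IL2RB and IL5RA also held 2 each. Those of IL2RB lay outside the gene, 1 in an intron of C1QTNF6 and 1 between genes, nearest the TSS of TMPRSS6. Those of IL5RA lay where TRNT1 is annotated as well. IL16 had 1 in an intron with folds of 5.25 and 3.89.

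In lung, the intron of IL7 shown above held the strongest of the 12 regions, with folds of 7.81 and 7.98, and IL7 had no lung call on its window score. IL33 had a lung region in an intron 8849 bases from its TSS with folds of 3.24 and 3.19. The RUNX letters were in 7 of the 19 spleen regions of members (36.8%), taking 200 bases at the centre, against 28.0% of all 2672 spleen regions and 17.4% of all regions. They were also in 4 of the 12 lung regions of members (33.3%), against 17.9% of all lung regions. The ETS letters were in 3 of the 19 (15.8%), against 13.5% and 8.13%.

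**Figure D5:**
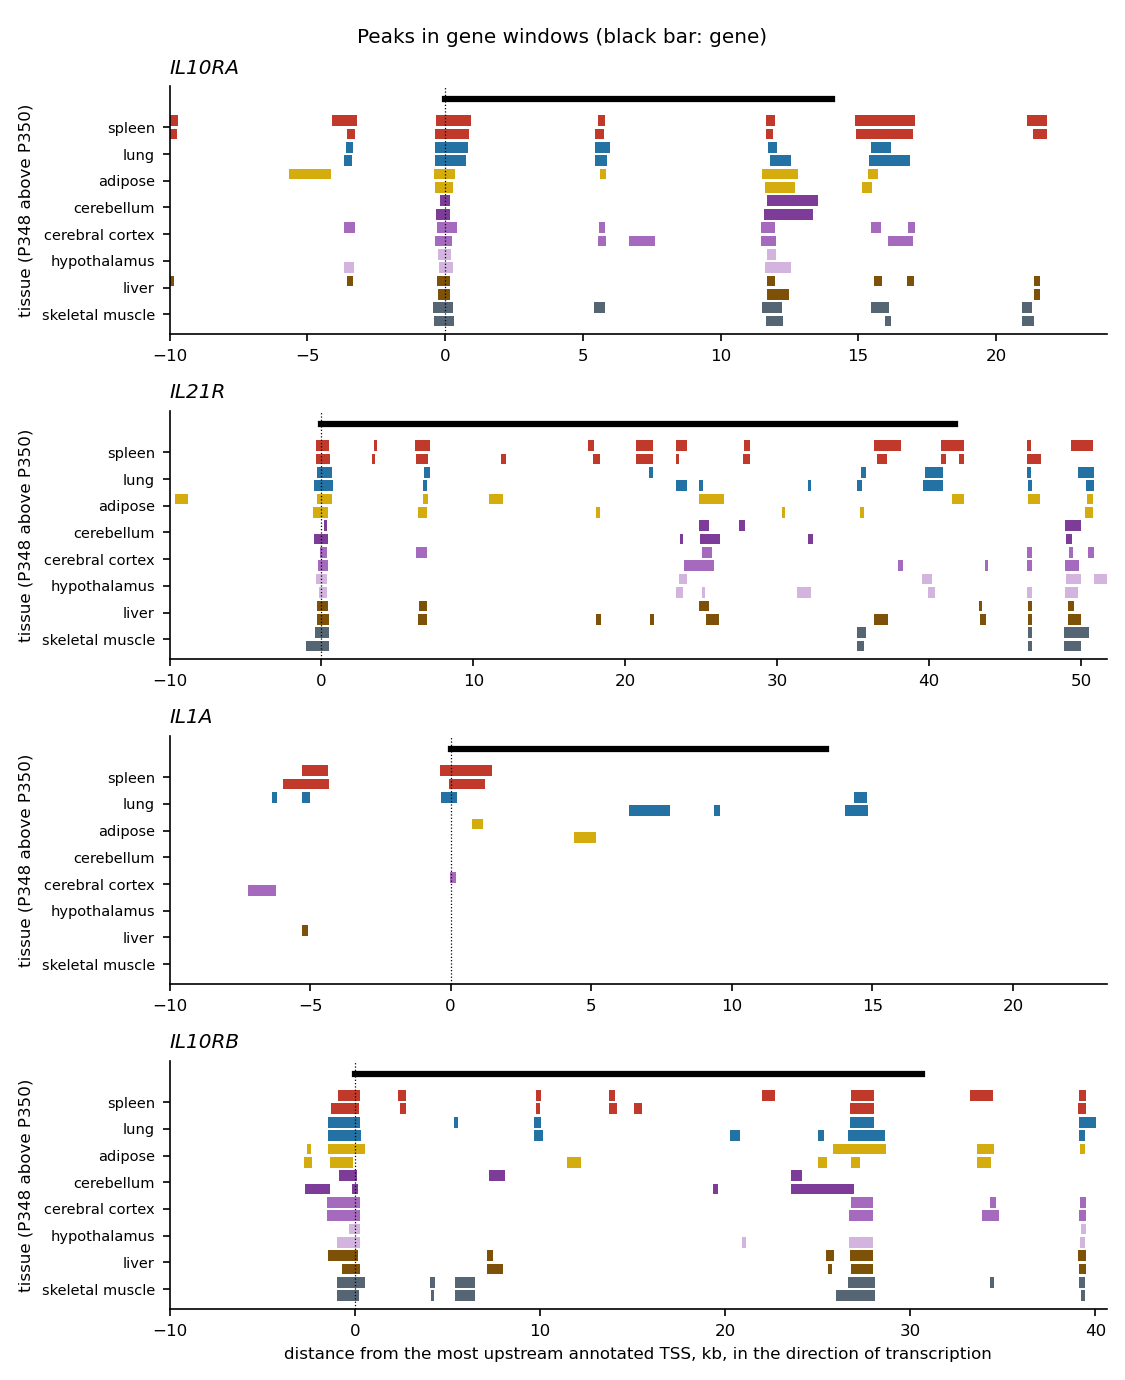
Peaks (coloured bars) in the windows of IL10RA, IL21R, IL1A and IL10RB by distance from the most upstream TSS (x axis, kb, in the direction of transcription), with 1 row for each of the 16 libraries, P348 above P350, and the gene as a black bar. IL10RA, IL21R and IL10RB have a peak at the TSS in all 16 libraries. The longest peaks of IL10RA in spleen lie past the end of the gene, those of IL21R and IL10RB that other tissues lack lie inside it, and IL1A has few peaks outside spleen and lung.

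The genes that act with the interleukins were counted from lists of the same pathways, beside the 13.6% of all genes that were higher in spleen and the all-gene median of 0.29. Of 16 cytokine and receptor genes of the same families without an IL symbol, 6 were higher and 1 lower in spleen than in the 6 other tissues, with a median log2 difference of 0.79. CSF1R, the receptor of CSF1 and IL-34, was at 1.63 (adjusted p = 0.00455, limma), and OSMR, the oncostatin M receptor, at -1.18 (adjusted p = 0.00377, limma). CSF1R is also among the macrophage markers above. Of 17 JAK-STAT genes 8 were higher, with a median of 0.72, among them STAT4, which acts downstream of IL-12, at 1.58 (adjusted p = 0.00225, limma) and the kinase gene TYK2 at 1.5 (adjusted p = 0.0138, limma). Of 16 genes of IL-1 and IL-17 signalling 6 were higher, with a median of 0.57, among them the adaptor gene MYD88 at 1.42 (adjusted p = 0.0112, limma) and IRAK2 at 1.30 (adjusted p = 0.00115, limma). In lung none of the genes of the 3 lists passed by limma.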

How the data were processed

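ATAC-seq peak lists of 16 pig libraries were analysed, 1 list per library. The study's methods describe trimming with Trim Galore 0.4.5, alignment with BWA 0.7.17, filtering with SAMtools 1.10 and duplicate removal with Picard 2.18.17, versions being those of the submitters' processing notes. The authors called peaks with MACS2 in broad mode at a q-value limit of 0.05 on Sscrofa11.1. Whether read ends were shifted for the transposase is not given in the sources used here. In the deposited lists the score equals about 10 times −log10 of q, the fold gives signal over local background as a ratio, and the deposited −log10 p-values and q-values served only to filter peaks. These values are averages over a broad peak. Read numbers were not used here, so differences in depth were not adjusted for.

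Genes were those of the RefSeq annotation (release 106) of the same assembly. A gene's score was the peak bases in the gene and 10 kb on either side per Mb of all peak bases. Genes with a peak in at least 2 libraries were tested with limma 3.58.1 in R 4.3.3 (trend) on log2(score + 5), with 8 tissue means over 16 libraries in 1 fit and Benjamini-Hochberg adjustment over 18340 genes, threshold 0.05. A fold on this scale understates the change at low scores. Tables and figures were made with Python 3.11.15, numpy 2.4.6, pandas 2.3.3, scipy 1.17.1 and matplotlib 3.10.9. The fit was tested on simulated data.

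Groups came from the tissue in the labels and replicates from the animal. The same 2 animals gave every tissue, so the animals pair the samples, although deviations of libraries of 1 animal had correlations of -0.225 to 0.162 (median 0.00312, 56 pairs). The members, families and pathway lists were chosen with earlier results of these data known. Genes given with values in every library were the 6 ligands and 10 receptors with the largest difference of spleen and lung together, called ones first, the 3 members with the largest difference of spleen against lung, and a list of 16 immune genes. Members that passed in spleen but fall outside this rule (IL10RB, IL13) were added after their values were seen. Alternatives were other q-value limits, windows, scalings, pseudocounts and filters, the animal as a block, tissue means and leaving out each library.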

Additional observations from a re-analysis of the deposited data

Results flagged for a closer look

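Spleen and lung, both taken against the same 6 other tissues, differed in 3 of 72 members by the limma test of spleen against lung. Over all genes 6.07% were called, and 4.49% were higher in spleen, so the members' share was no larger. The log2 difference, spleen minus lung, was 1.64 for IL27, 1.55 for IL21R and 1.40 for IL10RA, with adjusted p of 0.0251, 0.0215 and 0.0239. The scores of both spleen libraries lay above those of both lung libraries in all 3 genes. With peak bases not divided by the total the differences were 0.81, 0.66 and 0.54, with adjusted p of 0.241, 0.28 and 0.352 by limma, and the cause of this dependence was not tested.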

How the results depend on the processing

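Members called are given as counts. For spleen and lung against the 6 other tissues, 8 members were called, and 18 with q-values under 0.01, 17 under 0.0001, 4 with 2 kb on either side of the gene, 5 with 2 kb around each TSS only, 5 with peak bases not divided by the total, 0 with tissue means, and 1 to 12 when 1 library was left out. For spleen, 14 were called, and 25 with q under 0.01, 24 with 50 kb on either side, 7 with undivided peak bases, and 3 to 20 when 1 library was left out. For lung, 0 were called (0.0327%), and 2 with q under 0.01 (0.616%). It was 4 with q under 0.0001 (5.23%), 1 with lists of equal length (0.533%) and 1 with 2 kb on either side (0.056%). With undivided peak bases it was 2 (2.1%), and by peak number 1 (0.12%). For spleen against lung, 3 were called (6.07%), and 5 with q under 0.01 (8.18%). It was 5 with q under 0.0001 (5.33%), 5 with 50 kb (5.57%) and 6 with a pseudocount of 20 (10.8%). With TSS windows only it was 12 of the 67 members tested, while 31.5% of all genes were called. With undivided peak bases it was 5 (9.05%). With q under 0.0001 the part of all called genes that were higher was 71.1% for spleen and lung together, against 82.8%, and 42.5% for spleen against lung, against 73.9% (58.0% with q under 0.01). In the fit with the replicate block, which pairs tissues by animal, 6, 12, 0 and 3 members were called in the 4 comparisons, and beyond the 4 calls named in the report it ended none. The difference in TSS share between spleen and lung and the other tissues was 6.37 points, and 9.84 with q under 0.0001. The receptor minus ligand difference of 22.3 points was 26.6 with 500 bp, 10.1 with 5 kb and 12.7 with q under 0.0001. Regions open in 1 tissue numbered 42 (spleen), 47 (lung) and 6 (both) with a peak in either animal, and 4 in lung with q under 0.0001. The lung share was then below that of all regions (4.86% against 5.03%, and 0.95% against 1.03%). A direction turned in 4 cases, with log2 values of -0.00109 for IL21R (spleen and lung, TSS windows), -0.14 for IL15RA (spleen, peak number), -0.06 for IL23R (spleen, TSS windows) and 1.20 for IL4R (lung, q under 0.0001). The causes were not tested. IL1A, IL10RA and IL27 were called in spleen under every alternative that tested them. Apart from leaving out libraries, these were 12 for IL1A and 13 each for IL10RA and IL27. Read depth, which bears on which weak peaks are listed, was not used here.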

Other observations

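IL12RB1, the receptor subunit shared by IL-12 and IL-23, had a pattern in muscle and brain that no comparison above covers. Its window score was highest in skeletal muscle, at 80.1 and 75.0, and reached 63.6 and 49.4 in spleen. The strongest TSS peaks of IL12RB1 were in cerebral cortex and hypothalamus. Its window overlaps that of MAST3 and holds a region near the MAST3 TSS that was open in every library. IL22RA1, a receptor subunit for IL-22 on epithelia, was also highest in muscle (71.7 and 70.0), with 47.8 and 56.8 in liver and 31.0 and 34.4 in spleen. Its window overlaps those of MYOM3, a gene of the muscle sarcomere, and IFNLR1.

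IL1RL1, which encodes the receptor of IL-33, had its 2 highest mean scores in cerebellum (24.1 and 24.5) and liver (3.32 and 28.5), and was listed at 0 in both muscle libraries. IL1RAP, the coreceptor of the IL-1 group, had 120 and 111 in cerebellum and 167 and 77.3 in liver, against 75.6 and 55.8 in spleen. These genes were chosen after their values were seen, and no test was made of these patterns.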
